A study of Mus musculus with 11 samples.

Results

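Sox9, Anxa8, F2rl1, Slc14a1, Rhbdf1, Tmem98, Cdh1, Krt8 and Krt18 were followed by name in RNA sequencing of macrophages sorted from tumor-bearing mice. These 9 genes were among 35117 genes analysed in the table that compares genotypes and 35597 in the table that compares tumor with spleen, and all 9 were found in both tables. The first 6 were picked because they were lower in the mutant tumor macrophages, and Cdh1 was picked because it was not, so the members were selected on the values of KO_TAM against WT_TAM, which are given as a description with no test. The contrast of tumor with spleen did not choose them and carries the tests, although both contrasts use the same wild-type tumor libraries. The choice of the first 6 favours genes read high in those libraries, so the tests against spleen are not free of it.

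Libraries were made from 3 groups of C57BL/6 mice. KO_TAM were tumor-associated macrophages of LysMCre;Sin1fl/fl mice (4 libraries), WT_TAM were tumor-associated macrophages of Sin1fl/fl mice without Cre (4 libraries), and WT_SP were splenic macrophages of Sin1fl/fl mice without Cre (3 libraries). All mice were 6-8 weeks old, carried the floxed Sin1 alleles and received a subcutaneous graft of Lewis lung carcinoma cells (LLC, a transplantable mouse lung tumor line), and tissue was taken 14 days later. The tumor gate was CD45+ Ly6G- Ly6C- CD11b+ F4/80+, and the spleen gate was CD45+ TCRβ- Ly6G- Ly6C- F4/80+ with low CD11b. LysM-Cre is expressed from the Lyz2 locus in myeloid cells and is not carried by the grafted tumor cells, which keep Sin1. Whether other cells of the host lost Sin1 was not measured here. Nothing in the labels ties each library to its own mouse, and p-values then cover only the spread between libraries, which may be technical.

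Sin1, encoded by Mapkap1, is a subunit of mTOR complex 2, a kinase complex that phosphorylates AKT. The 9 genes are known mostly from cells other than macrophages. Sox9 is a transcription factor of the SOX family that directs cartilage formation and marks progenitor cells of several epithelia, Cdh1 encodes E-cadherin, the adhesion molecule of epithelial junctions, and Krt8 and Krt18 encode the paired keratins of simple epithelia. In bulk RNA from sorted cells, fewer cells of a type and less RNA per cell cannot be told apart.

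Depth and identity of the libraries were as follows. Library totals lay between 7639550 reads (WT_TAM replicate 4) and 13118534 reads (KO_TAM replicate 1), and 3 reads were worth between 0.211 and 0.492 CPM (reads scaled to a common library size), a limit that covers counting error only. Mapkap1 had between 43.3 and 54.1 CPM in KO_TAM and between 30.7 and 71.1 CPM in WT_TAM, so the groups overlapped; which exon is deleted was not known here, and reads outside it could be counted. Macrophage genes were abundant in both tumor groups, with Csf1r at 1456 CPM in KO_TAM, against 1572 CPM in WT_TAM on average, and Cd68 at 1142 CPM in KO_TAM, against 1262 CPM in WT_TAM. Of 11 macrophage markers, however, 9 had a lower mean in KO_TAM, and 4 of them (C1qa, C1qb, C1qc and Lyz2, the gene whose locus carries Cre in LysMCre mice) were lower without overlap. The sum of the 11 lay between 12021 and 25189 CPM in KO_TAM and between 33853 and 55466 CPM in WT_TAM, without overlap, and its part in the results below was not tested. WT_SP also held lymphocyte transcripts, with 5 B cell markers summing to between 5381 and 6414 CPM in WT_SP, against 9.18 to 71.3 CPM in WT_TAM, and their part in the results below was not tested.

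RefSeq promoter sequence (GRCm38.p6, 250 bases before to 50 after the start site) was at hand for Tmem98, Anxa8, Krt8 and Krt18, 4 of the 9 genes. Shown are Anxa8, picked like Sox9 for its lower level in KO_TAM, and Krt18, which overlapped between the genotypes. Each is given from the stretch just upstream of the annotated gene, with the CACCC box in capitals on either strand (CACCC or GGGTG).
Anxa8, chr14:34085729-34085978, plus strand: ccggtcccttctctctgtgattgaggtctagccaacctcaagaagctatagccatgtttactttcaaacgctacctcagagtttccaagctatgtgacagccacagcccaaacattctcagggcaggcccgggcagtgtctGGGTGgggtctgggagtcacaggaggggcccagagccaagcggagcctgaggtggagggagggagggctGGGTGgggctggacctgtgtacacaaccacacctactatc
Krt18, chr15:102027966-102028179, plus strand: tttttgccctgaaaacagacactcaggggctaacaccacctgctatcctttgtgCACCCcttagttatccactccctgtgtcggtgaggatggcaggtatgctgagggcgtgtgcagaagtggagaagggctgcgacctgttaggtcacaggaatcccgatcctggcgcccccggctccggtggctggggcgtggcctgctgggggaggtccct
All 4 promoters held a CACCC box, as did 57.5% of the 32851 mouse promoters of the same length. A SOX core (AACAAT, 10.7% of all promoters) and an AP-1 site (TGANTCA, 7.81%) were in none of the 4, reading both strands. Tmem98 held a CCAAT box (CCAAT, 37.4%) 122 bases before its start site and 3 GC boxes (GGGCGG, 35.7%), some of which overlap, and Krt8 held a TATA box (TATAAA, 13.6%) on both strands at its start site. These are matches of letters and carry no statement about binding.

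Sox9 lies on chromosome 11 (chr11:112782224-112787760, plus strand, GRCm38), as do Rhbdf1 (chr11:32209585-32222300, minus strand) and Tmem98 (chr11:80810175-80822033, plus strand). Anxa8 (chr14:34085981-34100571, plus strand), F2rl1 (chr13:95511732-95525227, minus strand), Slc14a1 (chr18:78100091-78142119, minus strand) and Cdh1 (chr8:106603351-106670246, plus strand) are on separate chromosomes. Krt8 (chr15:101996698-102004482, minus strand) and Krt18 (chr15:102028180-102032027, plus strand) are neighbours, 23697 bases apart, and point away from each other. Anxa8 overlaps A630023A22Rik and Krt8 overlaps Gm36026 on the opposite strand, and no source used here gives the strand setting of the counting, so reads of such partners cannot be told apart.

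Of the 9 genes, 6 were lower in every KO_TAM library than in any WT_TAM library, by choice of the members, while Cdh1, Krt8 and Krt18 overlapped between the genotypes. Of the 12874 genes tested, 8.73% were lower without overlap and 6.39% were higher without overlap, and nothing is read from the members' count, because this contrast chose them. Across all genes, 0 of 12874 passed a limma adjusted p of 0.05 in this contrast (0.0%), with 2367 genes (18.4%) at an unadjusted p under 0.05, and limma voom also called 0. Every fold change of the members between genotypes below is therefore a size with its spread and not a call.

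**Figure D1:**
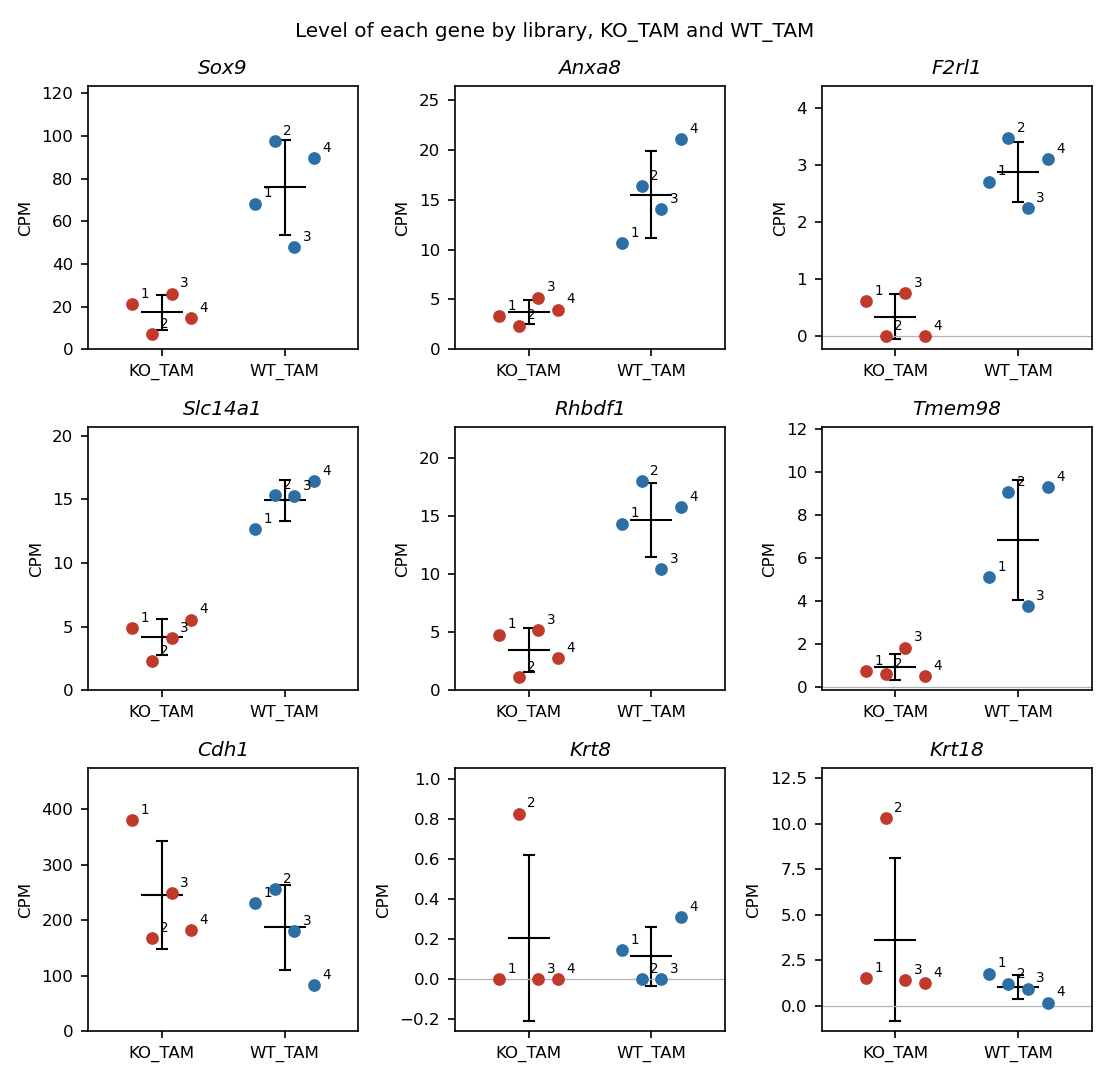
Level of each of the 9 genes (CPM, linear axis) in the KO_TAM and WT_TAM libraries, with points numbered by replicate and bars for the mean ± SD (n = 4 each). Sox9, Anxa8, F2rl1, Slc14a1, Rhbdf1 and Tmem98 separate by genotype, and Krt8 and Krt18 are high in KO_TAM replicate 2 alone.

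Sox9 was the most abundant of the 6 lower genes, per kilobase of transcript too. It had 21.3, 7.03, 26.1 and 14.5 CPM in KO_TAM replicates 1 to 4, against 68.2, 97.6, 48.0 and 89.6 CPM in WT_TAM replicates 1 to 4. The groups did not overlap, and KO_TAM replicate 2 was the lowest library. The means were 17.2 ± 8.28 CPM in KO_TAM, against 75.9 ± 22.3 CPM in WT_TAM (mean ± SD, n = 4 each), a KO_TAM level 0.227 times that of WT_TAM, and the log2 difference was -2.20 on the log2(CPM + 0.5) scale. These levels rested on 279, 68, 312 and 165 reads in KO_TAM and 931, 1150, 622 and 578 reads in WT_TAM. Most other SOX genes were close to the floor. Of 14 SOX genes listed, 3 were tested between genotypes, and apart from Sox9 these were Sox4, a factor of progenitor cells, and Sox5, a partner of Sox9 in cartilage. Sox4 had 2.67, 1.55, 1.92 and 2.03 CPM in KO_TAM replicates 1 to 4, against 1.03, 2.46, 1.78 and 26.8 CPM in WT_TAM, so only WT_TAM replicate 4 lay above the KO_TAM libraries. Sox5 was at 1.01 ± 0.713 CPM in KO_TAM, against 2.14 ± 0.499 CPM in WT_TAM (mean ± SD, n = 4 each). Genes that SOX9 drives in cartilage were near the floor, with 11 of them summing to between 4.57 and 7.32 CPM in KO_TAM and between 6.30 and 12.2 CPM in WT_TAM.

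F2rl1 encodes PAR2, a receptor that serine proteases such as trypsin and tryptase switch on by cutting its outer end. It had 0.610, 0, 0.752 and 0 CPM in KO_TAM replicates 1 to 4, against 2.71, 3.48, 2.24 and 3.10 CPM in WT_TAM. The KO_TAM values were 8, 0, 9 and 0 reads, so 2 libraries held no read, and at 3 reads these 2 would still have been at 0.310 and 0.265 CPM. The mean was 0.340 ± 0.397 CPM in KO_TAM, against 2.88 ± 0.531 CPM in WT_TAM (mean ± SD, n = 4 each), a level 0.118 times that of WT_TAM, and the log2 difference was -2.13, a figure that depends on the added 0.5 because the counts are low. The other 2 receptors of the family that were tested between genotypes had higher means in KO_TAM, and F2rl3 (PAR4) was too low to be tested. F2r (PAR1), the neighbour of F2rl1 on chromosome 13 at 76575 bases, had 37.3 ± 21.7 CPM in KO_TAM, against 13.9 ± 8.85 CPM in WT_TAM, and F2rl2 (PAR3) had 18.3 ± 3.32 CPM in KO_TAM, against 11.7 ± 5.18 CPM in WT_TAM (mean ± SD, n = 4 each), with overlapping groups for both.

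Rhbdf1 encodes iRhom1, an inactive relative of the rhomboid proteases that binds the sheddase ADAM17 and helps it mature. It had 4.80, 1.14, 5.18 and 2.73 CPM in KO_TAM replicates 1 to 4, against 14.4, 18.1, 10.4 and 15.8 CPM in WT_TAM. The order of the libraries was that of Sox9 within each genotype, with replicate 2 lowest and replicate 3 highest in KO_TAM and replicate 3 lowest and replicate 2 highest in WT_TAM. The means were 3.46 ± 1.89 CPM in KO_TAM, against 14.7 ± 3.22 CPM in WT_TAM (mean ± SD, n = 4 each), a level 0.236 times that of WT_TAM and a log2 difference of -2.07. Its paralog Rhbdf2 (iRhom2), the form known from macrophages, had the higher mean in KO_TAM, at 191 ± 41.7 CPM in KO_TAM, against 131 ± 40.2 CPM in WT_TAM (mean ± SD, n = 4 each; limma adjusted p = 0.286). Adam17 itself had 229 ± 12.2 CPM in KO_TAM, against 179 ± 72.8 CPM in WT_TAM (mean ± SD, n = 4 each; limma adjusted p = 0.435).

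Anxa8, an annexin that binds membrane phospholipids in the presence of calcium, had 3.35, 2.38, 5.18 and 3.97 CPM in KO_TAM replicates 1 to 4, against 10.6, 16.4, 14.0 and 21.1 CPM in WT_TAM. The highest KO_TAM library lay below the lowest WT_TAM library. The means were 3.72 ± 1.17 CPM in KO_TAM, against 15.5 ± 4.39 CPM in WT_TAM (mean ± SD, n = 4 each), a level 0.239 times that of WT_TAM and a log2 difference of -1.93. The other annexins showed no such gap. Of 12 annexin genes 10 were tested, 1 was lower without overlap, namely Anxa8, and their median log2 difference was 0.05, against 0.01 over all genes. Anxa2, which takes part in membrane repair, averaged 2025 CPM in KO_TAM, against 2497 CPM in WT_TAM, and Anxa5, the protein used to stain dying cells, averaged 899 CPM in KO_TAM, against 821 CPM in WT_TAM.

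Slc14a1 encodes the urea transporter UT-B, known from red blood cells and the vessels of the kidney. It had 4.88, 2.27, 4.09 and 5.56 CPM in KO_TAM replicates 1 to 4, against 12.7, 15.4, 15.3 and 16.4 CPM in WT_TAM. WT_TAM libraries were closer to one another for this gene than for the other lower genes. The means were 4.20 ± 1.42 CPM in KO_TAM, against 14.9 ± 1.59 CPM in WT_TAM (mean ± SD, n = 4 each), a level 0.281 times that of WT_TAM and a log2 difference of -1.77. Its paralog and neighbour Slc14a2, 4028 bases away, was too low to be tested.

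Tmem98, a membrane protein that binds the transcription factor MYRF and blocks its release from the membrane, had 0.762, 0.620, 1.84 and 0.529 CPM in KO_TAM replicates 1 to 4, against 5.13, 9.08, 3.78 and 9.30 CPM in WT_TAM. KO_TAM replicate 3 was the highest of its group and still below all WT_TAM libraries. The means were 0.937 ± 0.608 CPM in KO_TAM, against 6.82 ± 2.79 CPM in WT_TAM (mean ± SD, n = 4 each), a level 0.137 times that of WT_TAM and a log2 difference of -2.34. KO_TAM libraries held only 10, 6, 22 and 6 reads of it. Myrf was too low to be tested, at 0.349 ± 0.0986 CPM in KO_TAM, against 1.01 ± 0.671 CPM in WT_TAM (mean ± SD, n = 4 each).

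Cdh1 was the most abundant of the 9 genes in the tumor libraries and did not follow Sox9. It had 381, 168, 249 and 182 CPM in KO_TAM replicates 1 to 4, against 230, 257, 180 and 82.9 CPM in WT_TAM. The groups overlapped, and WT_TAM replicate 4 was the lowest of all 8 libraries. The means were 245 ± 97.2 CPM in KO_TAM, against 188 ± 76.6 CPM in WT_TAM (mean ± SD, n = 4 each), and the log2 difference of 0.43 became 0.08 without WT_TAM replicate 4. E-cadherin is known in mouse macrophages activated with IL-4, besides epithelium. Cdh2 (N-cadherin), the cadherin of mesenchymal and nerve cells, had 0.301 ± 0.169 CPM in KO_TAM, against 2.56 ± 0.951 CPM in WT_TAM (mean ± SD, n = 4 each; limma adjusted p = 0.102), without overlap. Ctnnb1 (β-catenin), which links cadherins to the cell's interior, averaged 139 CPM in KO_TAM, against 156 CPM in WT_TAM.

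Krt18 was low in 7 of the 8 tumor libraries. It had 1.52, 10.3, 1.42 and 1.23 CPM in KO_TAM replicates 1 to 4, against 1.76, 1.19, 0.926 and 0.155 CPM in WT_TAM. KO_TAM replicate 2 held 100 reads of it, which made the KO_TAM mean 3.63 ± 4.47 CPM against 1.01 ± 0.666 CPM in WT_TAM (mean ± SD, n = 4 each). Without that library the KO_TAM mean was 1.39 CPM, and its ratio to WT_TAM was 1.38 instead of 3.60. Krt8, its partner, had 0, 8, 0 and 0 reads in KO_TAM replicates 1 to 4, against 2, 0, 0 and 2 reads in WT_TAM, and was too low to be tested. The library that held Krt8 and Krt18 was thus the one with the lowest Sox9, Anxa8, Slc14a1 and Rhbdf1.

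Epithelial markers differed in both directions. Of 26 epithelial markers, 10 were tested between genotypes, 2 were lower and 1 higher without overlap, and the median log2 difference was 0.01. Their sum lay between 170 and 254 CPM in KO_TAM and between 256 and 307 CPM in WT_TAM, lower in KO_TAM without overlap, and its largest part was Spint1, a protease inhibitor, at 87.4 CPM in KO_TAM, against 160 CPM in WT_TAM on average. Of the defining markers, Krt19 was near the floor of 3 reads, at 0.176 ± 0.299 CPM in KO_TAM, against 0.0212 ± 0.0424 CPM in WT_TAM (mean ± SD, n = 4 each). Epcam was low but above that floor, at 1.33 ± 1.64 CPM in KO_TAM, against 1.91 ± 0.483 CPM in WT_TAM (mean ± SD, n = 4 each). Krt14, a keratin of basal epithelial cells, had 15.3, 3.41, 19.2 and 11.9 CPM in KO_TAM replicates 1 to 4, against 43.8, 63.3, 36.0 and 125 CPM in WT_TAM (limma adjusted p = 0.106), without overlap, while its usual partner Krt5 was read at 0 in all KO_TAM libraries and averaged 0.174 CPM in WT_TAM.

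Fibroblast genes were lower in mean beside the 6 lower genes. All 15 tested of 16 fibroblast markers had a lower mean in KO_TAM, 11 of them without overlap, and their median log2 difference was -2.08, against 0.01 over all genes. Their sum was 300, 88.5, 589 and 234 CPM in KO_TAM replicates 1 to 4, against 908, 1976, 953 and 1867 CPM in WT_TAM. KO_TAM replicate 2 was lowest and KO_TAM replicate 3 highest of their group, as for Sox9. In WT_TAM replicate 2 was highest for both, but the lowest sum was that of replicate 1 and the lowest Sox9 that of replicate 3. On a ratio chosen after the values were seen, per 100 CPM of this sum, Sox9 was between 4.43 and 7.94 CPM in KO_TAM and between 4.80 and 7.51 CPM in WT_TAM, so on that scale the groups overlapped. Rhbdf1 was between 0.880 and 1.60 CPM on the same scale in KO_TAM and between 0.847 and 1.58 CPM in WT_TAM. F2rl1 was between 0 and 0.203 CPM on that scale in KO_TAM and between 0.166 and 0.299 CPM in WT_TAM. Anxa8, Slc14a1 and Tmem98 overlapped on it as well. Cdh1 was between 42.4 and 189 CPM on it in KO_TAM and between 4.44 and 25.4 CPM in WT_TAM. The 6 genes were picked as lower in KO_TAM, Cdh1 as not lower, and the sum was lower there too. Overlap of the 6 and separation of Cdh1 on this ratio were thus largely set by the choice, and nothing is read from them. Whether the amount of fibroblast RNA has a part in the lower level of these genes was not tested.

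Further sums of markers were taken in the same libraries. Transcripts of the mitochondrial genome summed to between 3856 and 16000 CPM in KO_TAM and between 9757 and 61258 CPM in WT_TAM, with overlap. All 11 tested mitochondrial transcripts had a lower mean in KO_TAM, 0 of them without overlap. Genes of cell division summed to between 391.8 and 839.5 CPM in KO_TAM and between 964 and 1123 CPM in WT_TAM, and all 16 had a lower mean in KO_TAM; these sums did not overlap. Neutrophil markers summed to between 212 and 790 CPM in KO_TAM and between 83.8 and 191 CPM in WT_TAM, higher in KO_TAM without overlap. Markers of muscle and pericytes summed to between 8.89 and 24.3 CPM in KO_TAM and between 25.9 and 98.1 CPM in WT_TAM, lower in KO_TAM without overlap. Red cell genes summed to between 23.2 and 223 CPM in KO_TAM and between 130 and 597 CPM in WT_TAM, given here because Slc14a1 is known from red cells. All 3 tested had a lower mean in KO_TAM, with a median log2 difference of -2.11. Endothelial markers lay between 16.5 and 20.9 CPM in KO_TAM and between 13.4 and 26.7 CPM in WT_TAM. The sums of red cell and endothelial genes overlapped between the groups. The part of these measures in the differences of the 9 genes was not tested.

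**Figure D2:**
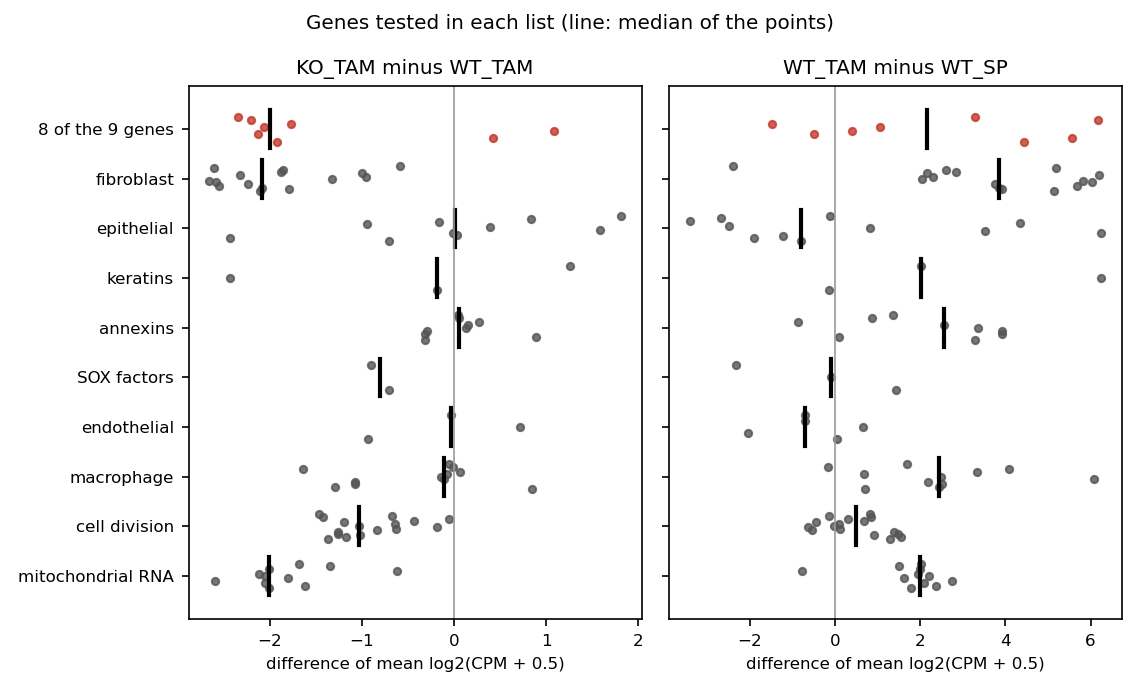
Difference of mean log2(CPM + 0.5) for the tested genes of each list (points) with the median of the points shown (line), for KO_TAM minus WT_TAM on the left and WT_TAM minus WT_SP on the right; the 9 genes are left out of the other lists. Fibroblast markers lie beside the 6 lower genes on the left, with a median of -2.08, while epithelial markers centre on 0.01. A lower mean in KO_TAM was not particular to fibroblast markers. All 11 tested mitochondrial transcripts and all 16 cell division genes had one too.

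The genes most like Sox9 were sought by Pearson correlation of log2(CPM + 0.5) over the 8 tumor libraries among 12873 other tested genes. The correlations are a description, since the libraries fall into 2 groups by genotype and differ in depth. With the group means taken off, the 10 most alike were Adh5 (r = 0.996), L3hypdh, Rhbdf1 (r = 0.982), Dclk1, Maoa, Fkbp10, Ica1, Lca5, Zfp423 and Ak1. With the values as they stood, the 10 were Rhbdf1 (r = 0.996), Fkbp10, a collagen chaperone (r = 0.991), Col6a1, a collagen VI chain (r = 0.987), Pxdc1, Zfp423, Suv39h1, Ptrf, Vcam1, Fbln2 and Tnfsf13, where r also carries the difference between genotypes. Rhbdf1, Fkbp10 and Zfp423 were in both sets of 10. On the scale with group means taken off, F2rl1 ranked 236th (r = 0.860), Tmem98 692nd (r = 0.749), Anxa8 845th (r = 0.720), Slc14a1 1354th (r = 0.637) and Cdh1 3924th (r = 0.312) of the 12873 genes. Krt18 was at the other end, at 12302nd (r = -0.725).

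**Figure D3:**
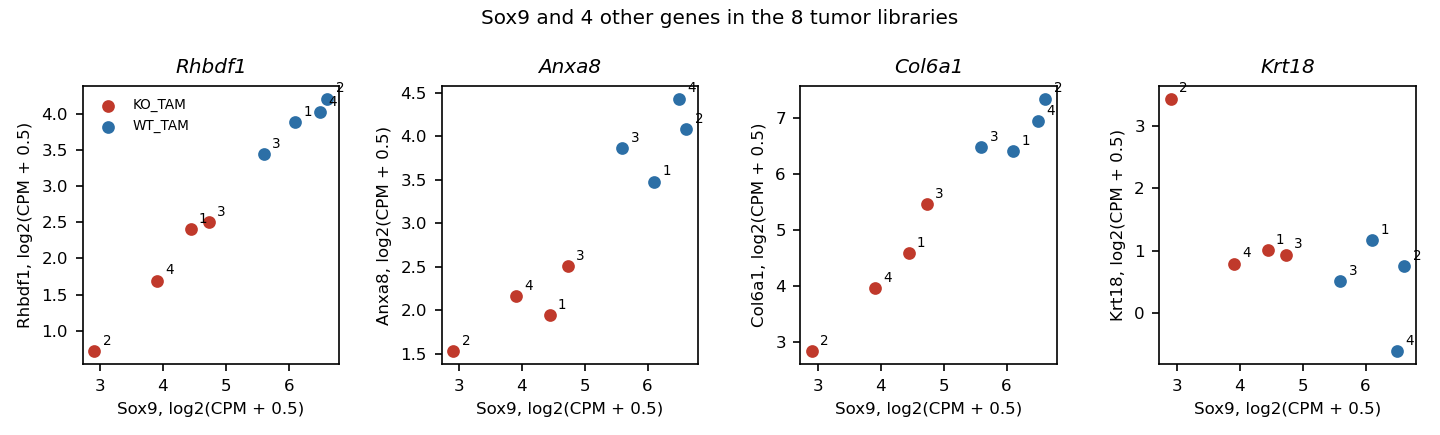
Sox9 against Rhbdf1, Anxa8, Col6a1 and Krt18 in the 8 tumor libraries, all on the log2(CPM + 0.5) scale, with points numbered by replicate and coloured by genotype. Rhbdf1 puts the libraries in the same order as Sox9 within each genotype, and Krt18 is highest in KO_TAM replicate 2, where Sox9 is lowest.

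Per kilobase of transcript, the scale on which genes can be set beside one another, the order in WT_TAM was Cdh1 at 42.3 ± 17.3 CPM per kilobase, Sox9 at 18.4 ± 5.41, Anxa8 at 10.1 ± 2.86, Slc14a1 at 5.29 ± 0.565, Rhbdf1 at 5.00 ± 1.10, Tmem98 at 4.93 ± 2.02, F2rl1 at 1.05 ± 0.194, Krt18 at 0.725 ± 0.479 and Krt8 at 0.0640 ± 0.0828 (SD, n = 4). Slc14a1, Rhbdf1 and Tmem98 did not differ beyond their spread, nor did F2rl1 and Krt18. In KO_TAM Cdh1 stayed at the top at 55.3 ± 22.0 CPM per kilobase, while Sox9 at 4.17 ± 2.01, Krt18 at 2.61 ± 3.22 and Anxa8 at 2.42 ± 0.764 could not be put in order beyond their spread (SD, n = 4).

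The second comparison sets WT_TAM beside WT_SP and shows where the same genes stand when tumor macrophages are measured against macrophages of another organ. Of the 9 genes, 5 were called higher in WT_TAM and 1, Slc14a1, lower, while F2rl1 and Krt18 were tested and not called and Krt8 was too low to test. Over the 14239 genes tested, 23.1% were called higher and 23.6% lower, 46.7% in all (limma adjusted p under 0.05). The same 5 genes were higher without overlap (26.3% of all tested genes) and Slc14a1 lower without overlap (29.8%). The median log2 difference of all genes was -0.07. Scaled by library total alone, that median was -0.52, and the calls of 3287 higher and 3364 lower genes became 2135 higher and 5629 lower.

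**Figure D4:**
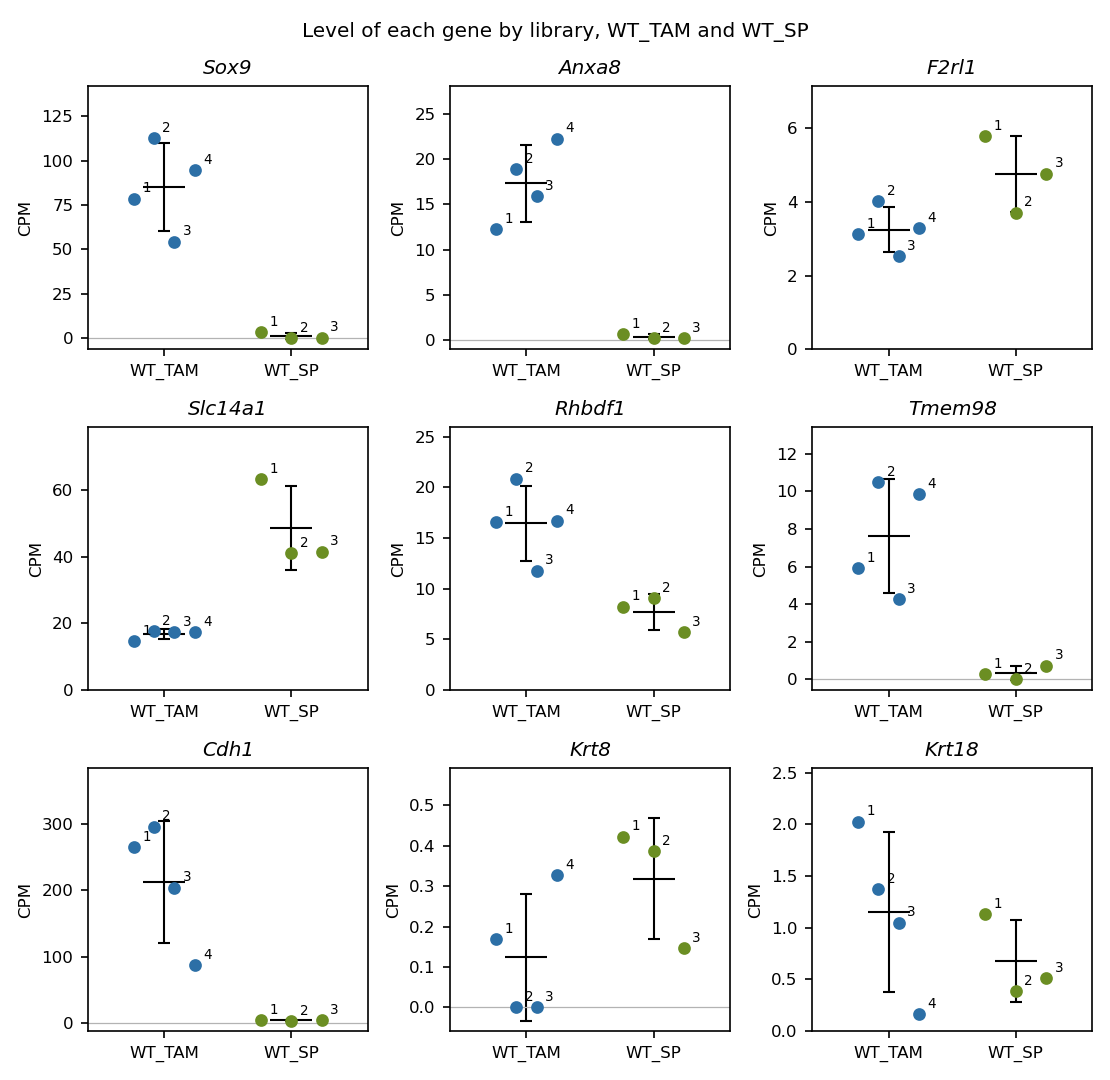
Level of each of the 9 genes (CPM, linear axis) in the WT_TAM and WT_SP libraries of the tumor and spleen table, with points numbered by replicate and bars for the mean ± SD (n = 4 and n = 3). Sox9, Anxa8, Tmem98 and Cdh1 are near 0 in WT_SP on the scale of their panels, though Cdh1 was read in every WT_SP library. Slc14a1 is higher there, and F2rl1 and Krt18 overlap.

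Sox9 rose the most among the 9 genes on the log2(CPM + 0.5) scale. It had 78.6, 113, 54.4 and 94.8 CPM in WT_TAM replicates 1 to 4, against 3.24, 0 and 0.293 CPM in WT_SP replicates 1 to 3. WT_SP replicate 1 held 46 of its reads and the others 0 and 4, so its level in spleen was set by 1 library. The mean was 85.1 ± 24.8 CPM in WT_TAM (SD, n = 4) and 1.18 ± 1.79 CPM in WT_SP (SD, n = 3), and the log2 fold change stood at 6.18 ± 0.62 (± SE, limma adjusted p = 7.21e-05), higher in 4 of 4 libraries. Without WT_SP replicate 1 the log2 fold change was 7.04 (limma adjusted p = 2.01e-05). Over the alternatives its limma adjusted p lay between 2.21e-06 and 0.0104.

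Anxa8 had 12.2, 18.9, 15.9 and 22.3 CPM in WT_TAM replicates 1 to 4, against 0.634, 0.154 and 0.220 CPM in WT_SP. The groups lay far apart, and the log2 fold change stood at 4.43 ± 0.31 (± SE, limma adjusted p = 8.02e-06). Most other annexins rose too. Of the 10 tested annexins 8 were higher and 1, Anxa6, was lower in WT_TAM, with a median log2 fold change of 2.92, and Anxa2 stood at 2803 CPM in WT_TAM and 184 CPM in WT_SP on average. Tmem98 had 5.91, 10.5, 4.28 and 9.84 CPM in WT_TAM replicates 1 to 4, against 0.282, 0 and 0.733 CPM in WT_SP. Its log2 fold change was 3.29 ± 0.41 (± SE, limma adjusted p = 0.000271).

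Cdh1 rose in WT_TAM too. It had 265, 296, 204 and 87.7 CPM in WT_TAM replicates 1 to 4, against 3.67, 2.86 and 4.55 CPM in WT_SP. The groups did not overlap, and the log2 fold change was 5.56 ± 0.40 (± SE, limma adjusted p = 1.06e-05). Ctnna1 (α-catenin), which ties the cadherin complex to actin, was higher as well, at 154 CPM in WT_TAM and 38.7 CPM in WT_SP on average (limma adjusted p = 0.00104), whereas Jup (plakoglobin) was lower, at 52.0 CPM in WT_TAM and 109 CPM in WT_SP (limma adjusted p = 0.0144). Epcam, the epithelial adhesion molecule, was lower in WT_TAM, at 2.14 ± 0.518 CPM (SD, n = 4) against 9.29 ± 1.67 CPM in WT_SP (SD, n = 3; limma adjusted p = 0.0005).

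Rhbdf1 had 16.6, 20.9, 11.8 and 16.7 CPM in WT_TAM replicates 1 to 4, against 8.25, 9.11 and 5.72 CPM in WT_SP. The spleen libraries thus held it in every replicate, and the log2 fold change was 1.05 ± 0.26 (± SE, limma adjusted p = 0.0102). The call was lost without WT_SP replicate 3 (0.86; limma adjusted p = 0.0544) and with scaling by library total alone (0.60; limma adjusted p = 0.0713), and the limma adjusted p lay between 0.000706 and 0.0713 over all alternatives. Rhbdf2 had 149 ± 49.7 CPM in WT_TAM (SD, n = 4) and 86.6 ± 6.05 CPM in WT_SP (SD, n = 3; limma adjusted p = 0.0846).

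Slc14a1 fell in WT_TAM relative to spleen. It had 14.6, 17.7, 17.3 and 17.4 CPM in WT_TAM replicates 1 to 4, against 63.3, 41.1 and 41.6 CPM in WT_SP. The groups did not overlap, and the log2 fold change was -1.48 ± 0.21 (± SE, limma adjusted p = 0.000481). It was the most abundant of the 9 genes in spleen, at 17.2 ± 4.49 CPM per kilobase (SD, n = 3). Red cell genes summed to between 148 and 631 CPM in WT_TAM, against 3821, 973 and 779 CPM in WT_SP replicates 1 to 3, and WT_SP replicate 1 was the highest for both. Their part in the level of Slc14a1 was not tested.

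F2rl1 was read in both organs and was not called. It had 3.12, 4.02, 2.54 and 3.28 CPM in WT_TAM replicates 1 to 4, against 5.78, 3.71 and 4.77 CPM in WT_SP. The groups overlapped, and the log2 fold change was -0.48 ± 0.26 (± SE, limma adjusted p = 0.157), which became a call only with scaling by library total alone (-0.91; limma adjusted p = 0.0134, range 0.0134 to 0.405 over all alternatives). Of 8 genes listed for the activation of PAR2 by proteases, 6 were tested. Of these, 4 were called higher and 2 lower in WT_TAM, so the list moved in both directions. Among the higher were the clotting proteases F7, at 125 CPM in WT_TAM and 0.142 CPM in WT_SP, and F10, at 293 CPM in WT_TAM and 4.26 CPM in WT_SP on average (limma adjusted p = 4.69e-07 and 4.29e-07). Krt18 had 2.03, 1.37, 1.05 and 0.164 CPM in WT_TAM replicates 1 to 4, against 1.13, 0.386 and 0.513 CPM in WT_SP. Its log2 fold change was 0.39 ± 0.47 (± SE, limma adjusted p = 0.527). Krt8 had 2, 0, 0 and 2 reads in WT_TAM replicates 1 to 4, against 6, 5 and 2 reads in WT_SP.

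Other keratins and the marker lists were set beside these. Of 16 keratins 4 were tested and 2 were called, both higher in WT_TAM, namely Krt14 at 74.1 ± 41.0 CPM in WT_TAM (SD, n = 4) and 0.659 ± 1.08 CPM in WT_SP (SD, n = 3; limma adjusted p = 5.39e-05) and Krt80 at 37.9 ± 21.1 CPM in WT_TAM and 7.18 ± 1.74 CPM in WT_SP (limma adjusted p = 0.0326). Of 11 tested epithelial markers 3 were higher and 5 were lower in WT_TAM, with a median log2 fold change of -0.80. Of 15 tested fibroblast markers, 14 were higher in WT_TAM and 1, Thy1, was lower, with a median of 3.86. Their sum was 127, 47.8 and 48.9 CPM in WT_SP replicates 1 to 3, against 1046 to 2282 CPM in WT_TAM. The spleen library with the most Sox9 reads was the one with the highest sum. Some other lists rose too. Of 11 tested macrophage markers 8 were called higher and 0 lower, with a median of 2.44. They summed to between 5244 and 5571 CPM in WT_SP, against 38341 to 58673 CPM in WT_TAM. Of 11 tested mitochondrial transcripts 9 were called higher and 0 lower, with a median of 1.99. The part of these lists in the values of the 9 genes was not tested.

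The 9 genes were set against their description as foreign to macrophages. Rhbdf1, F2rl1, Slc14a1 and Cdh1 were read in the spleen libraries, at 7.69 ± 1.76, 4.75 ± 1.04, 48.7 ± 12.7 and 3.69 ± 0.845 CPM (SD, n = 3). Beside the B cell transcripts named above, these libraries held T and NK cell markers at 1205 to 1263 CPM, dendritic cell markers at 480 to 506 CPM and red cell genes at 779 to 3821 CPM in sum. Which cells gave the reads of these genes in spleen was not tested. Cdh1 was high in both tumor groups while Epcam, Krt8, Krt18 and Krt19 were low in nearly all tumor libraries. Other epithelial genes were not low, among them Krt14 and Spint1 in WT_TAM, given above. The epithelial markers summed to between 170 and 254 CPM in KO_TAM and between 256 and 307 CPM in WT_TAM. Which cells gave the reads of Cdh1 was not tested.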

How the data were processed

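RNA of 11 libraries was measured by sequencing. The submitters' processing notes name mm10 as build, and HTSeq, SAMtools, TopHat2, HISAT, HISAT2 and DESeq2 as tools, with no roles or settings. In 2 tables, the authors deposited length-scaled values, which were treated as a score because they are not read counts; 0 numeric columns were left unused. Whole reads were recovered from the steps between values (99.9% to 100% of each library's total). In the genotype table, 98 cells in 35 genes were not whole, none of them in the 9 genes. They were restored except in 1 gene, Fdps, which was left out. CPM used the library total times the authors' factor, and the same library has different CPM in the 2 tables.

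Within each table, limma 3.58.1 (R 4.3.3, mean-variance trend, robust) was fitted to log2(CPM + 0.5), with no covariate, for genes at the CPM of 10 reads in at least the number of libraries of the smaller group and with 15 reads or more in all; p-values were two-sided and Benjamini-Hochberg adjusted over all tested genes. Fold changes on this scale understate changes of low genes. A planned count test was replaced by this fit because of the unit. The script was tested on simulated data. The 9 genes were all named, with family genes that averaged at least 5 CPM in a group or were the most abundant of their family, and the 10 genes most like Sox9; other genes were named after their values were seen. The members, gene lists and tests were chosen with earlier results of these data known. The labels' protocol calls the mice of both genotypes paired but ties no replicate number to a pair, so same-numbered libraries were not treated as pairs. Pairs of libraries of 1 group differed by more than sampling noise (chi-square per degree of freedom between 11.1 and 233).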

Additional observations from a re-analysis of the deposited data

Results flagged for a closer look

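Dixon's criterion for 1 library apart from the other 3 of its group was applied to 27 groups of 4 libraries, and chance flags about 1 in 20 groups. The WT_TAM libraries entered once on the scale of each comparison, so the 27 groups are not all separate. Krt18 was flagged in KO_TAM, where replicate 2 had 10.3 CPM and the gap to the next library was 0.968 of the group's range. Krt8 was flagged in the same library, at 0.827 CPM, with the other KO_TAM libraries at 0. Slc14a1 was flagged in WT_TAM of the tumor and spleen table, where replicate 1 was lowest at 14.6 CPM and the gap was 0.864 of the range. Scaled for the comparison of genotypes, the same WT_TAM libraries had 12.7, 15.4, 15.3 and 16.4 CPM of Slc14a1 and were not flagged. The first pair are in 1 library, which was also the lowest for Sox9, Anxa8, Slc14a1 and Rhbdf1.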

How the results depend on the processing

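The count of genes called between KO_TAM and WT_TAM was 0 in the fit reported, 98 with no filter on low genes, 387 with array weights, 65 without both libraries that lay apart (KO_TAM replicate 2 and WT_TAM replicate 4) and 4 with the cells as deposited, and 0 in every fit that left out 1 library. The fit with the cells as deposited differed from the fit reported only in the restored cells. What caused the other differences in count was not tested. Between WT_TAM and WT_SP, 6651 genes were called, and between 4977 and 9133 when 1 library was left out. The count of the 9 genes called there was 6, between 5 and 6 when 1 library was left out, and 7 with array weights, where Krt18 was called (0.83; limma adjusted p = 0.0269, range 0.0269 to 0.837 over all alternatives). Of 121 recalculated member values for WT_TAM against WT_SP, 117 kept their direction and side of the threshold. For KO_TAM against WT_TAM, 143 of 145 member values moved by less than 1 SD (the larger of the 2 group SDs on the log2 scale), and F2rl1 moved by more in 2. This count includes fits that could not move these fold changes, namely no filter, the replicate block and the cells as deposited. Same-numbered libraries did not deviate together (correlations between -0.16 and 0.20 for the genotypes and between -0.09 and 0.10 for tumor and spleen). With the replicate number as a block, 0 genes were called between genotypes and 9117 between WT_TAM and WT_SP. In the latter, WT_TAM replicate 4 has no WT_SP library of its number, so the block takes it out of the difference. Leaving that library out with no block called 9133 genes, so the rise from 6651 is not a result of pairing alone. The log2 fold change of Sox9 between WT_TAM and WT_SP was 6.11 in both fits (limma adjusted p = 0.0104 with the block), and the block called the same 6 members. Depth limits Krt8, F2rl1 and Tmem98 in KO_TAM most, since their levels there rest on 22 reads or fewer in each library.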
